A study of Homo sapiens with 12 samples.

Results

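Peaks on the arms of chromosome 1 were taken from 9 peak lists of a chromatin immunoprecipitation sequencing (ChIP-seq) series on Cas9 binding in HEK 293T, an established line from human embryonic kidney. A peak was assigned to the short arm when its start lay below 121500000 and to the long arm when its start lay above 149900000 (hg19), and starts from 142500000 to 149900000 were left out. This gave 6821 of the 58042 peaks of the series (11.8%), 4020 on the short arm and 2801 on the long arm. The left-out stretch held 253 peaks, and no peak started between the short arm and that stretch. In all 9 libraries the cells carried HA-tagged dCas9, a form of Cas9 that has lost its cutting activity but still binds DNA, together with 1 guide RNA (sgRNA), and the protein was pulled down through its HA tag 3 days after transfection. sgRNA1, sgRNA2 and sgRNA3 were present as 2 replicates each, and sgRNA4, sgRNA5 and sgRNA6 as 1 library each, so that values for these last guides have no replicate error. The expression was transient and the cells came from 1 line at passages given as a range, and the labels do not say whether replicates were separate cultures. dCas9 without a guide and the amplicon samples of wild-type Cas9 were not analysed here, so no value has a background measured without sgRNA beside it. Read depth per library is unknown, since the lists hold no read counts.

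A guide directs Cas9 to DNA that matches its spacer next to a short protospacer adjacent motif, and the protein can also hold sites that match only the bases nearest to that motif. Such binding is known to be found more readily in open chromatin, which is most frequent around genes and their promoters. Chromosome 1 is the longest human chromosome, with gene-rich and gene-poor stretches on both arms, and next to its centromere the long arm carries a large block of heterochromatin followed by many segmental duplications. HEK 293 lines are hypotriploid, with chromosome arms present in unequal copy numbers; copy number was not measured in these files. No genome or gene annotation in hg19 coordinates was used here, so peaks are given by position and without gene names or bases.

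The arms carried peaks in every list. With sgRNA6, 2299 peaks lay on the short and 1506 on the long arm, with sgRNA4 914 and 684, and with sgRNA5 596 and 433. In replicate 2 the short and long arm held 111 and 96 peaks for sgRNA1, while sgRNA2 had 50 and 45, and sgRNA3 had 39 and 27. The replicate 1 lists were far shorter, with 5 and 4 peaks for sgRNA1, 5 and 3 for sgRNA2, and 1 and 3 for sgRNA3. A value from a replicate 1 list alone therefore rests on at most 9 peaks of these arms.

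Scaled to length, the denser arm differed between guides. The short arm was taken as 121.5 Mb and the long arm as 99.3 Mb, up to the last peak of any list. The short arm held 18.9 peaks per Mb with sgRNA6, 7.52 with sgRNA4 and 4.91 with sgRNA5, and the long arm 15.2, 6.89 and 4.36. All 3 of these lists were thus denser on the short arm. In replicate 2, sgRNA1 had 0.914 peaks per Mb on the short and 0.967 on the long arm, sgRNA2 0.412 and 0.453, and sgRNA3 0.321 and 0.272, so that sgRNA1 and sgRNA2 were denser on the long arm and sgRNA3 on the short arm.

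**Figure D1:**
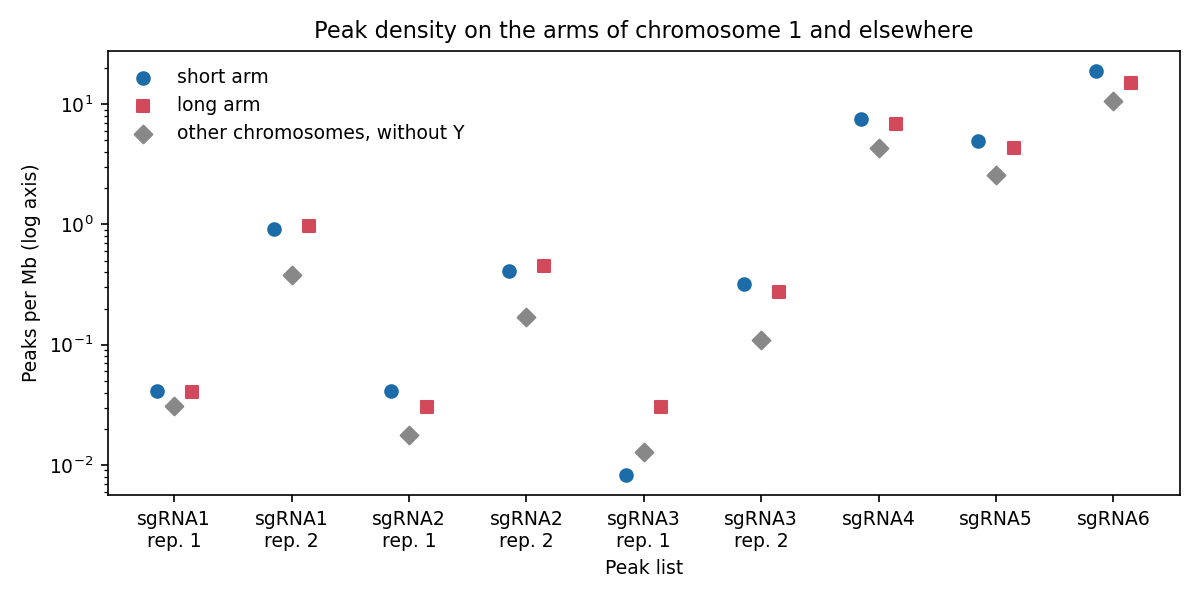
Peaks per Mb (log axis) on the short arm (circles), on the long arm (squares) and on all other chromosomes without Y (diamonds), for each of the 9 peak lists (rep. = replicate). In 8 lists both arms lie above the other chromosomes; in sgRNA3 replicate 1, with 1 short-arm peak, the short arm lies below them.

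The long arm makes up 45.0% of the joint length of the arms. It held 39.6% of the arm peaks with sgRNA6 (95% interval 38.0 to 41.2), 42.8% with sgRNA4 (40.4 to 45.3) and 42.1% with sgRNA5 (39.0 to 45.2). In replicate 2 it held 46.4% with sgRNA1 (39.4 to 53.4), 47.4% with sgRNA2 (37.0 to 57.9) and 40.9% with sgRNA3 (29.0 to 53.7). The interval lay below the share of length with sgRNA6 alone. These exact Clopper-Pearson intervals cover counting error only.

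As a log2 ratio of the density on the long to that on the short arm, with 0.5 peaks added to each count, the values were -0.32 for sgRNA6, -0.17 for sgRNA5 and -0.13 for sgRNA4. From the replicates, sgRNA1 had 0.04 ± 0.06 (0.00 and 0.08), sgRNA2 had -0.11 ± 0.35 (-0.36 and 0.14), and the ratio was 0.64 ± 1.23 for sgRNA3 (1.51 and -0.23), as mean ± SD of n = 2 each. Over the 6 guides the mean was -0.01 ± 0.34 (SD), with 2 guides above and 4 below 0, and no difference between the arms was detected (exact two-sided permutation test by sign flips, p = 1). The smallest p that 6 guides allow is 0.0312. Without sgRNA3, whose replicate 1 list gave 1.51 on 4 peaks, the mean was -0.14 (exact permutation p = 0.125, where 5 guides cannot go below 0.0625). Without replicate 1 it was -0.10 (exact permutation p = 0.219), and in the higher-scoring 50% of every list it was -0.32 (exact permutation p = 0.0312), but -0.00 in that 50% once replicate 1 was also left out (exact permutation p = 1).

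Whether the replicated guides differ from each other in this ratio cannot be settled with 2 lists each. An exact permutation test over the 15 ways of pairing the 6 lists gave p = 0.8, and its smallest possible value, 0.0667, does not reach 0.05. Replicate 2 minus replicate 1 was 0.08 for sgRNA1, 0.50 for sgRNA2 and -1.74 for sgRNA3 (exact permutation p = 1, smallest possible 0.25), and the replicate 1 list of sgRNA3 held 4 arm peaks.

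The long arm was denser than the other chromosomes in all 9 lists and the short arm in 8. On the short arm, replicate 2 of sgRNA3, sgRNA2 and sgRNA1 had 2.94, 2.43 and 2.41 times, and sgRNA5, sgRNA6 and sgRNA4 1.88, 1.78 and 1.74 times the peaks per Mb of the other chromosomes in the same list. On the long arm the ratios were 2.68, 2.55 and 2.49 for replicate 2 of sgRNA2, sgRNA1 and sgRNA3, and 1.67, 1.60 and 1.42 for sgRNA5, sgRNA4 and sgRNA6. On either arm the replicate 2 lists thus stood above the lists of sgRNA4, sgRNA5 and sgRNA6, without overlap. In replicate 1 the short arm had 1.33 times the density elsewhere with sgRNA1, 2.34 times with sgRNA2 and 0.637 times with sgRNA3, and the long arm 1.30, 1.72 and 2.34 times. Guide, list length and library moved together here, and their parts in the ratios cannot be told apart.

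**Figure D2:**
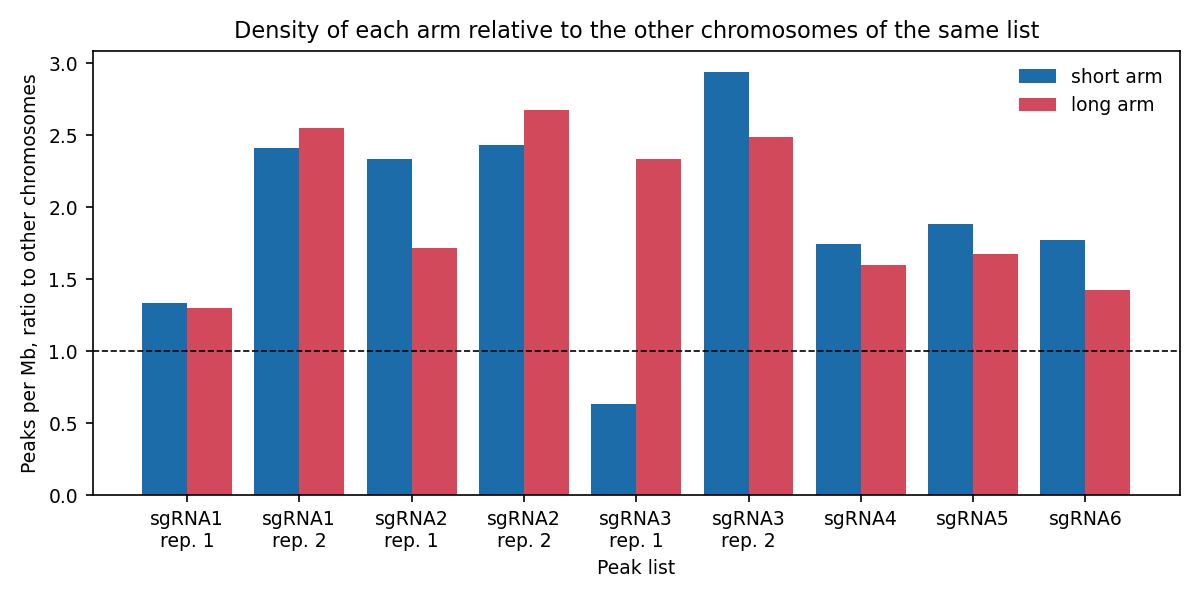
Peaks per Mb on the short and long arm divided by peaks per Mb on all other chromosomes (without Y) of the same list, for the 9 peak lists (rep. = replicate); the dashed line marks equal density. The replicate 2 lists of sgRNA1, sgRNA2 and sgRNA3 reach 2.41 to 2.94 times on either arm, above the 1.42 to 1.88 times of sgRNA4, sgRNA5 and sgRNA6.

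Over the 6 guides the log2 ratio to the other chromosomes was 0.92 ± 0.21 for the short and 0.91 ± 0.33 for the long arm (SD), above 0 in 6 of 6 guides for each. Both passed the exact two-sided permutation test over guides (adjusted p = 0.0312 over the arms, the smallest that 6 guides allow). The stretch between the arms was left out of their length, while the other chromosomes were counted up to their last peak, centromeres included. With length counted as 1 Mb bins that hold a peak, the means were 0.76 for the short and 0.75 for the long arm (exact permutation p = 0.0312 each). The guides share cells, protein and many peaks, so they are not fully independent, and that chromosome 1 is raised in the replicate 2 lists was known when this comparison was chosen. Without replicate 2 the short-arm mean was 0.73 and no longer passed (exact permutation p = 0.0625); sgRNA3, with its single short-arm peak in replicate 1, was then below 0 at -0.09. Ranked by density with the 22 other chromosomes, the short arm stood at place 4 of 24 with sgRNA4, sgRNA5 and sgRNA6, in lists where chromosome 19 was the densest, and the long arm at place 6, 5 and 7. In replicate 2 the long arm stood at place 3 with sgRNA1, 2 with sgRNA2 and 5 with sgRNA3, and the short arm at place 4, 3 and 2. In the short replicate 1 lists the long arm stood at place 9 with sgRNA1, 6 with sgRNA2 and 2 with sgRNA3, and the short arm at place 8, 4 and 15.

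The arms differed in how their peaks were placed near the chromosome ends. The first 5 Mb of the short arm held 146 of 914 short-arm peaks with sgRNA4 (16.0%), 289 of 2299 with sgRNA6 (12.6%) and 49 of 596 with sgRNA5 (8.22%), where even spread would give 4.12%. The last 5 Mb of the long arm held 20 of 684 long-arm peaks with sgRNA4 (2.92%), 51 of 1506 with sgRNA6 (3.39%) and 15 of 433 with sgRNA5 (3.46%), where even spread would give 5.04%. The replicate 2 lists showed the same order on few peaks. sgRNA1 had 11 of 111 (9.91%) against 4 of 96 (4.17%), and sgRNA2 had 5 of 50 (10%) against 2 of 45 (4.44%). sgRNA3 had 3 of 39 (7.69%) against 0 of 27 long-arm peaks, a count that allows a share of up to 11.1%. By share, the tip of the short arm was fuller than its length and the tip of the long arm emptier in all 6 of these lists. At the long-arm tip the replicate 2 lists held at most 4 peaks, too few to set them apart from even spread. The replicate 1 lists did not show this order: sgRNA1 had 1 of 5 short-arm (20%) and 1 of 4 long-arm peaks (25%) there, and sgRNA2 and sgRNA3 had none at either tip. This was seen in the data and was not tested. With the 5 Mb next to the chromosome ends left out, the log2 ratio of the long to the short arm changed from -0.01 to 0.10 (exact permutation p = 0.719).

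In most lists the peaks on the long arm had the larger median width. The median long-arm peak was 734 bp against 685 bp on the short arm with sgRNA6, 831 against 783.5 bp with sgRNA4 and 746 against 645 bp with sgRNA5. In replicate 2 it was 900.5 against 719 bp with sgRNA1, 982 against 871 bp with sgRNA2 and 764 against 662 bp with sgRNA3. To compare lists, each width was turned into its percentile within its whole list, and the long-arm median stood higher in 8 of 9 lists. The exception was sgRNA1 replicate 1, where long minus short was -16.7 points on 5 and 4 peaks. The largest difference, 51.7 points, came from sgRNA2 replicate 1 on 5 and 3 peaks, beside 10.9 points in replicate 2 of that guide. Over guides the long-arm median was 12.8 ± 9.9 points higher (SD, 6 of 6 guides; exact two-sided permutation test, p = 0.0312, the smallest possible). Width was planned as an alternative to score, and the call was lost without replicate 2 (11.7 points, exact permutation p = 0.281) and among peaks that overlapped no other guide (7.11 points, exact permutation p = 0.344). It was also lost with mean in place of median percentiles (7.22 points, exact permutation p = 0.0625). Without sgRNA2 the difference was 9.14 points, where 5 guides allow no call.

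Scores, the authors' value per peak, differed less. Within their lists, long-arm peaks had a median percentile of 53.1 against 49.4 on the short arm with sgRNA6, 53.5 against 52.0 with sgRNA4, 60.1 against 52.9 with sgRNA5, and in replicate 2 53.2 against 43.5 with sgRNA1, 56.1 against 47.4 with sgRNA2 and 63.5 against 55.0 with sgRNA3. In the replicate 1 lists the order was the other way, 30.7 against 58.3 with sgRNA1, 81.0 against 82.8 with sgRNA2 and 17.1 against 82.9 with sgRNA3, the last on 3 peaks against 1. With replicates averaged, long minus short was -3.62 ± 13.4 points (SD, 6 guides) and no difference was detected (exact permutation p = 0.688). Without replicate 1 it was 6.55 ± 3.24 points higher, in 6 of 6 guides (exact permutation p = 0.0312). The direction of the mean score difference therefore depended on whether the short replicate 1 lists entered; they hold at most 9 arm peaks each.

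**Figure D3:**
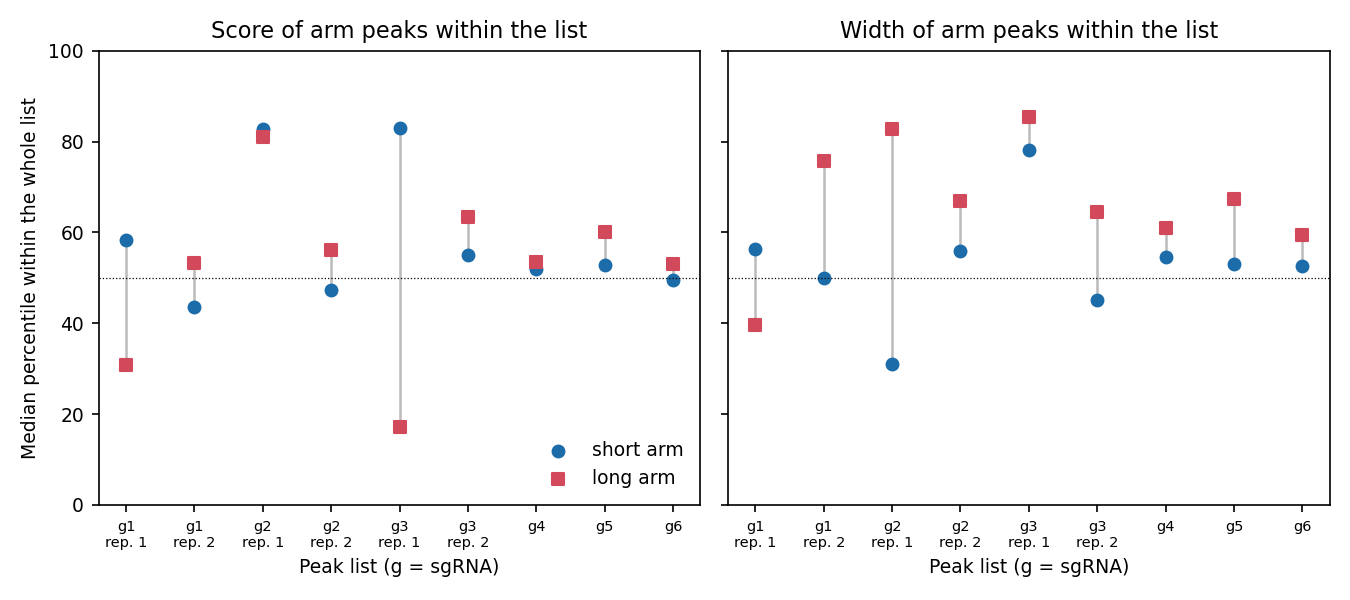
Median percentile of short-arm (circles) and long-arm (squares) peaks within their whole list, by score (left) and by width (right), for the 9 peak lists (g = sgRNA, rep. = replicate); 50 is the middle of a list and grey lines join the arms. By width the long arm stands higher in 8 lists; by score it stands higher in 6 lists and lower in the 3 replicate 1 lists.

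The peaks named for each guide and arm were the 2 with the highest scores, taken first from those in both replicates where a guide had them. By this rule, 3 sgRNA1 peaks present in both replicates were named and overlapped no other guide; another one in both replicates, of lower score (149.99, rank 32 in replicate 2), overlapped all 5. On the short arm sgRNA1 had its best peak at chr1:4000891-4001443, with a score of 279.6 (rank 8 of 1278) in replicate 2 and 98.6 (rank 13 of 96) in replicate 1. Its peak at chr1:117300460-117301270 scored 183 (rank 18) and 163 (rank 6). Of the long-arm peaks, that at chr1:246680910-246681405 scored 164 (rank 24) and 61.7 (rank 27). The arms held 3 such sites among the 25 highest replicate 2 peaks of sgRNA1, and 16.2% of all peaks of that list. Such sites were not counted among the highest peaks of the other chromosomes, so this does not set the arms apart. The second long-arm peak of sgRNA1, at chr1:243418285-243419769 (210.1, rank 14), was absent from replicate 1 but overlapped peaks of 4 other guides.

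With sgRNA3, both peaks present in both replicates again overlapped no other guide, but ranked lower. The short-arm peak at chr1:109370725-109371141 scored 98.3 (rank 8 of 41) in replicate 1 and 70.6 (rank 105 of 382) in replicate 2. The long-arm peak at chr1:201226040-201226701 scored 64.6 (rank 22) and 53.9 (rank 303), close to the lowest score of 50 found in any list. Higher replicate 2 peaks of sgRNA3, at chr1:86861213-86862406 (126, rank 12) and chr1:228782366-228784408 (106, rank 25), overlapped 3 and 4 other guides.

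For sgRNA2 no short-arm peak was found in both replicates. Its highest replicate 2 peaks there, at chr1:16993269-16994056 (131, rank 9 of 570) and chr1:85741761-85742723 (121, rank 12), overlapped 4 and 5 other guides. A long-arm peak, at chr1:243418237-243419539, was in both replicates (53.0 and 80.8, ranks 46 of 58 and 72) and overlapped 4 other guides, as did the peak at chr1:204463233-204464184 (112, rank 16).

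The single libraries held high peaks of both kinds. With sgRNA6 the highest short-arm peaks, at chr1:30435548-30436726 (2642, rank 15 of 33611) and chr1:4392161-4393775 (2294, rank 21), overlapped no other guide, and neither did its highest long-arm peak at chr1:228094210-228094854 (1816, rank 35). With sgRNA4 the peaks at chr1:6071680-6073312 on the short arm (731, rank 42 of 13660) and chr1:234233420-234234891 on the long arm (685, rank 46) were its own, whereas the highest, at chr1:78353709-78355022 (1242, rank 14), overlapped a sgRNA6 peak of score 479 (rank 906), a sgRNA5 peak of 117 (rank 925) and a sgRNA1 peak of 55.8 (rank 908). Further peaks chosen by the same rule lay at chr1:174128248-174129458 with sgRNA4 (490, rank 88) and chr1:154973335-154975061 with sgRNA6 (1346, rank 63), shared with 4 and 2 guides.

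All 4 sgRNA5 peaks chosen by this rule were shared. The long-arm peak at chr1:206136471-206138980 (531, rank 8 of 8346) overlapped sgRNA6 (423, rank 1223), sgRNA4 (302, rank 295), sgRNA1 (151, rank 31) and sgRNA3 (90.8, rank 40). The other long-arm peak, at chr1:235324015-235325183 (374, rank 25), and the short-arm peaks at chr1:59249422-59250789 (433, rank 17) and chr1:111505838-111507275 (393, rank 20) overlapped 3, 3 and 4 guides. Of the 24 peaks chosen by the rule for all guides, 6 of 12 on the short and 4 of 12 on the long arm overlapped no other guide. Over all chromosomes the share of peaks that did overlap another guide ran from 27.1% with sgRNA6 to 92.2% with sgRNA2, so these counts mix guides with very different backgrounds.

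Of the 21 replicate 1 peaks on the arms, 7 (33.3%, exact 95% interval 14.6 to 57.0) overlapped a replicate 2 peak of the same guide. For sgRNA1 these were 4 of 9, against 36.5% of its replicate 1 peaks on all chromosomes, for sgRNA2 1 of 8, against 27.6%, and for sgRNA3 2 of 4, against 41.5%. At these numbers no difference from the whole list could be seen. Of the 7 peaks, 5 were found with no other guide, 3 of 4 for sgRNA1 and 2 of 2 for sgRNA3, where the share over all chromosomes was 68.6% and 64.7%, and 0 of 1 for sgRNA2, where it was 6.25%. The other 2 were found with several guides: the sgRNA1 peak at chr1:85742225-85742741, shared with all 5 other guides, and the sgRNA2 peak at chr1:243418892-243419893, shared with 4. Of the 8 sgRNA2 replicate 1 peaks, 6 overlapped another guide and 4 overlapped 4 or 5 other guides without being in its own replicate 2 list, for example the peak at chr1:152020198-152020840 (84.0, rank 6 of 58). These sgRNA2 counts were not taken over all chromosomes, so they do not show anything particular to the arms. The highest of the 8 peaks, at chr1:12215050-12215714 (122, rank 3), was in no other list.

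With replicates merged, the shared fraction of long-arm peaks lay above that of the whole list for all 6 guides, and that of short-arm peaks lay closer to it for 5 of 6 guides. The share that overlapped another guide by at least 1 bp was 87.6% of 113 short-arm and 85.9% of 99 long-arm peaks for sgRNA1, against 84.6% of its peaks on all chromosomes. It was 92.7% of 55 and 97.9% of 47 for sgRNA2, against 92.2%, and 82.1% of 39 and 86.2% of 29 for sgRNA3, against 78.6%. For the longer lists it was 53.5% of 914 and 57.6% of 684 for sgRNA4, against 53.1%, 66.8% of 596 and 70.2% of 433 for sgRNA5, against 65.1%, and 27.1% of 2299 and 31.9% of 1506 for sgRNA6, against 27.1%. The exact interval of the long-arm share included the whole-list share for sgRNA1 (77.4 to 92.0%), sgRNA2 (88.7 to 99.9%) and sgRNA3 (68.3 to 96.1%). It lay above the whole-list share for sgRNA4 (53.8 to 61.3%), sgRNA5 (65.7 to 74.5%) and sgRNA6 (29.5 to 34.3%). The whole lists include the arm peaks, and this difference was not tested.

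The long-arm share was the higher one for 5 of 6 guides, by 3.43 to 5.15 percentage points, and for sgRNA1 the short-arm share was higher, with a difference of -1.75 points. The sgRNA1 difference turned to 0.11 points without replicate 1 and 2.81 points at an overlap of 50% of both peaks, and that of sgRNA3 to -3.41 points in the higher-scoring 50%. The exact 95% intervals were 25.2 to 28.9% on the short and 29.5 to 34.3% on the long arm for sgRNA6, which do not meet; for the other 5 guides they overlapped. They cover counting error within 1 list only and are no test between arms. Since an overlap counts for both guides of a pair, the guides are not independent here and the mean difference of 3.32 ± 2.55 points (SD, 6 guides) was not tested. Wider peaks can be met by other peaks more often, and the long-arm peaks had the larger median width in most lists. The part of width in this difference was not tested.

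For a pair of guides, each share is taken over the peaks of the guide counted, and the lists differ in length. The pair shares over all chromosomes were not computed. Of the 47 long-arm peaks of sgRNA2, 95.7% overlapped sgRNA6, but only 3.05% of the 1506 sgRNA6 peaks overlapped sgRNA2. On the short arm the corresponding shares were 85.5% and 2.31%. sgRNA4 and sgRNA6 shared 49.1% of the sgRNA4 and 20.0% of the sgRNA6 peaks on the short arm and 54.2% and 25.2% on the long arm. sgRNA4 and sgRNA5 shared 25.8% and 39.9% on the short and 30.8% and 48.7% on the long arm. Among the replicated guides sgRNA1 and sgRNA2 shared the most, 21.2% and 43.6% on the short and 22.2% and 46.8% on the long arm, and sgRNA2 and sgRNA3 shared 6 peaks on each arm.

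**Figure D4:**
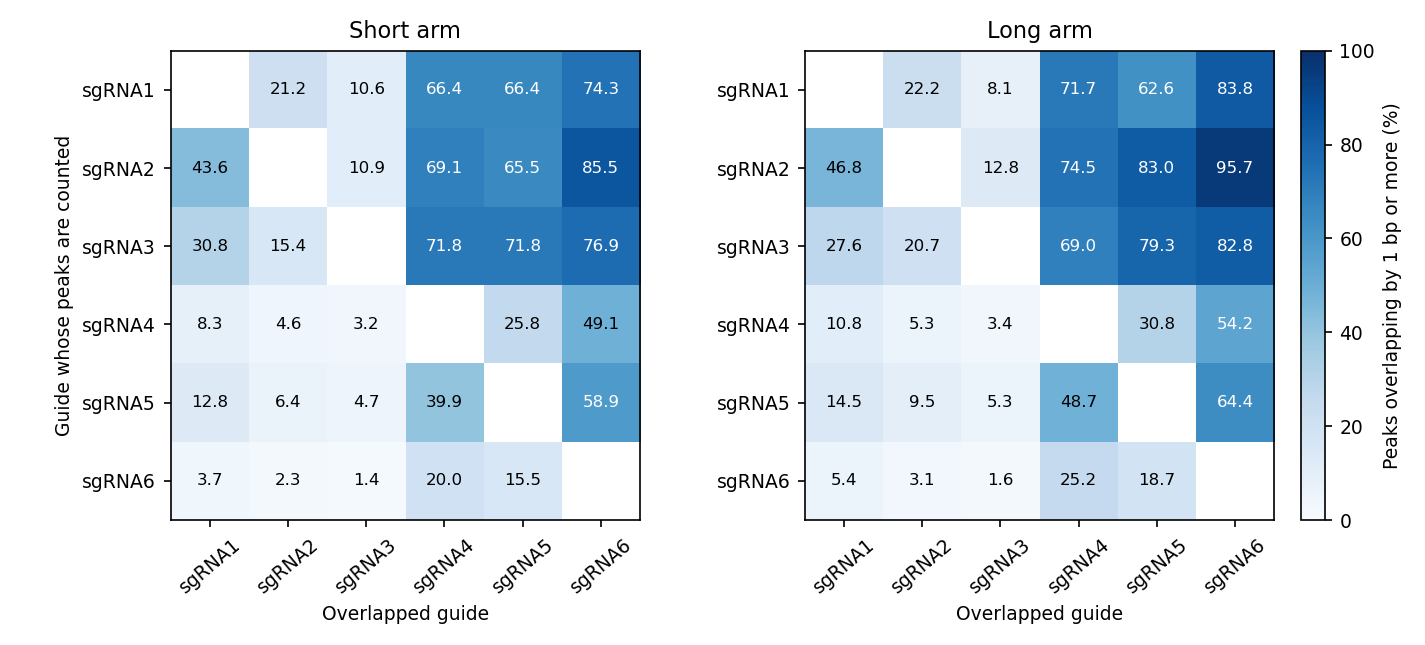
Percent of the peaks of one guide (rows, replicates merged) that overlap a peak of another guide (columns) by 1 bp or more, on the short arm (left) and the long arm (right). Columns of the long lists, sgRNA4, sgRNA5 and sgRNA6, are darkest for the rows of sgRNA1, sgRNA2 and sgRNA3, with 95.7% of sgRNA2 long-arm peaks overlapping sgRNA6.

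Shared peaks of the arms stood higher in their lists than unshared ones for most guides. With sgRNA6 the median percentile of the score was 74.8 for 622 shared and 41.4 for 1677 unshared short-arm peaks, and 75.6 for 480 and 42.8 for 1026 long-arm peaks. With sgRNA5 it was 63.7 against 32.6 on the short and 69.3 against 31.7 on the long arm, and with sgRNA4 61.8 against 40.7 and 61.9 against 36.8. The share of sgRNA6 short-arm peaks that overlapped another guide was 12.7, 18.5, 24.7 and 51.4% over score percentiles 0 to 25, 25 to 50, 50 to 75 and 75 to 100, and on the long arm 13.7, 20.2, 32.9 and 55.1%. For sgRNA2 only 4 short-arm and 1 long-arm peaks were unshared, too few to compare. For the other guides shared peaks also had the larger median width on both arms, for example 890 against 635 bp on the short arm with sgRNA6. The part of width in these differences was not tested. The percentiles and shares by score were not taken over all chromosomes, so they do not show anything particular to the arms.

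When the peaks of all lists were merged into regions, 2955 lay on the short and 1936 on the long arm. Of these 2325 (78.7%) and 1464 (75.6%) were found with 1 guide, beside 30296 (78.9%) of the regions on the other chromosomes. On the arms these were mostly regions of sgRNA6 (1677 and 1026) or sgRNA4 (425 and 290). Regions found with 4 or more guides made up 2.98% of the short-arm (88 regions, exact 95% interval 2.40 to 3.66) and 4.18% of the long-arm regions (81, 3.34 to 5.17), beside 1.72% of those on the other chromosomes (661 of 38409, 1.59 to 1.86). The intervals of the arms overlapped each other and lay above that of the other chromosomes. Regions are not replicates. A region with 4 guides must include at least 1 of sgRNA1, sgRNA2 and sgRNA3, whose replicate 2 lists were themselves denser on chromosome 1 than those of the other guides; the part of this in the shares was not tested.

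All 6 guides met at 3 regions of the short (0.102%) and 2 of the long arm (0.103%), beside 20 regions (0.052%) on the other chromosomes. Counts this small do not set the arms apart. The region at chr1:85741505-85742818 was in 7 of 9 lists, with ranks 12, 15 and 32 in replicate 2 of sgRNA2, sgRNA3 and sgRNA1, rank 41 in sgRNA1 replicate 1, and ranks 603, 607 and 919 with sgRNA6, sgRNA4 and sgRNA5. The region at chr1:113497819-113499842 ranked 65, 153 and 383 in replicate 2 of sgRNA2, sgRNA3 and sgRNA1 and 510 with sgRNA6, 521 with sgRNA5 and 2500 with sgRNA4. The third, at chr1:93810876-93812183, stood high with sgRNA6 (717, rank 293) but in the lower part of the sgRNA1 replicate 2 list (53.3, rank 1042).

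On the long arm the region at chr1:235530329-235531558 scored 222 with sgRNA4 (rank 672) and 128 with sgRNA6 (rank 10341), and in replicate 2 it ranked 111 with sgRNA1, 187 with sgRNA3 and 366 with sgRNA2. That at chr1:152020173-152021293 came from sgRNA2 replicate 1 (84.0, rank 6), not replicate 2, and scored 63.7 to 88.5 in the other 5 lists that held it. Further regions with 5 guides lay at chr1:243418182-243419893, which ranked 14 in sgRNA1 replicate 2 and 63 with sgRNA5, at chr1:206135297-206139176 and at chr1:154154573-154156314. On the short arm regions with 5 guides included chr1:120835782-120839862, which ranked 14 in sgRNA3 replicate 2 and 66 with sgRNA5, and chr1:111505838-111507275.

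Along the arms, peaks were spread unevenly over 1 Mb bins, and the fullest bins were only in part the same between guides. On the short arm the bin from 32 to 33 Mb held on average 2.57% of a guide's arm peaks, that from 1 to 2 Mb 2.44% and that from 31 to 32 Mb 1.43%, where even spread would give 0.453%. On the long arm the bin from 228 to 229 Mb held 2.53%, that from 155 to 156 Mb 2.50% and that from 156 to 157 Mb 1.86%. The bin from 32 to 33 Mb was the fullest short-arm bin in replicate 2 of sgRNA1 (8 peaks) and sgRNA2 (5 peaks), and the bin from 1 to 2 Mb that of sgRNA4 (52), sgRNA5 (20) and sgRNA6 (102). Among long-arm bins the fullest was that from 228 to 229 Mb for sgRNA4 (47) and sgRNA2 replicate 2 (4), that from 155 to 156 Mb for sgRNA5 (28) and sgRNA1 replicate 2 (8), and that from 156 to 157 Mb for sgRNA6 (82). In sgRNA3 replicate 2 the fullest bins held 3 peaks each, from 109 to 110 Mb and from 150 to 151 Mb, so its order of bins is not resolved.

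With sgRNA6, 117 of 122 short-arm and 97 of 101 long-arm bins held a peak. With sgRNA4 it was 106 and 93, with sgRNA5 103 and 87, and in replicate 2 61 and 47 with sgRNA1, 38 and 33 with sgRNA2, and 34 and 21 with sgRNA3. Peaks of all 6 guides fell into 17 short-arm and 10 long-arm bins, and 2 and 3 bins held no peak of any list. The fullest 12 short-arm and 10 long-arm bins held 31.6% of the sgRNA6 peaks on the short and 34.6% on the long arm, 34.7 and 40.4% with sgRNA4, and 28.7 and 38.1% with sgRNA5. For each of these lists the long arm was the more concentrated one; this was not tested.

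**Figure D5:**
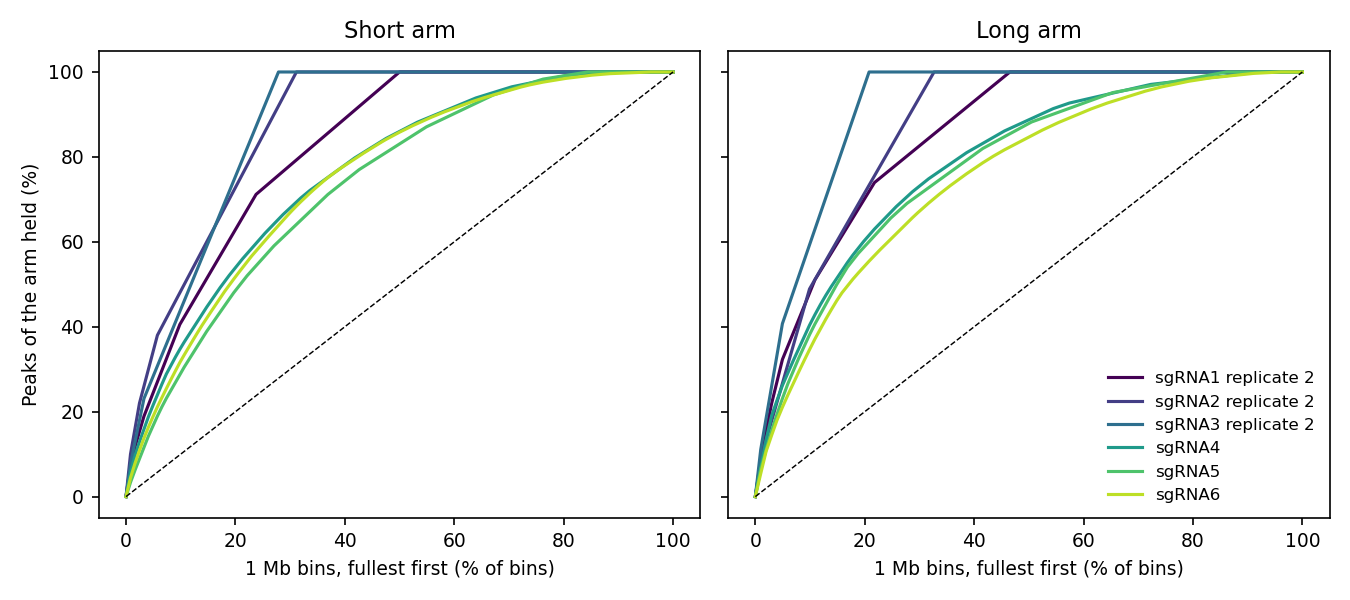
Percent of an arm's peaks held (y axis) by its 1 Mb bins taken from the fullest down (x axis, percent of bins), for the short arm (left) and the long arm (right); the dashed line is even spread. sgRNA4, sgRNA5 and sgRNA6 lie close together, and the fullest 10 long-arm bins hold 34.6 to 40.4% of their peaks; the shorter replicate 2 lists reach 100% early because most bins hold none of their peaks.

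Counts per bin went together between guides. Spearman correlations over the 122 short-arm bins ran from 0.31 to 0.88 for the 15 pairs of guides (median 0.43), and over the 101 long-arm bins from 0.33 to 0.86 (median 0.50), with sgRNA4 and sgRNA6 highest on both arms. These values describe bins that are neighbours and share peaks, gene content and mappability, and lists with few peaks limit them.

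Over stretches of 5 Mb the fullest parts of the short arm were 0 to 5 Mb, with 6.00% of a guide's arm peaks on average, and 30 to 35 Mb, with 5.72%. For the long arm they were 225 to 230 Mb (5.69%), 150 to 155 Mb (5.48%) and 155 to 160 Mb (4.72%), where even spread would give 2.26%. The emptiest were 95 to 100 Mb on the short arm (0.429%) and 215 to 220 Mb (0.190%) and 185 to 190 Mb (0.388%) on the long arm. In the stretch from 215 to 220 Mb, sgRNA6 had 11, sgRNA4 3, sgRNA5 2 and sgRNA1 replicate 2 1 peak, and the other 5 lists had none. In the stretch from 225 to 230 Mb, sgRNA6 had 197, sgRNA4 103, sgRNA5 53, and sgRNA1, sgRNA2 and sgRNA3 in replicate 2 15, 9 and 1. Both arms thus held stretches well above and well below even spread. Neighbouring peaks of sgRNA6 lay a median of 16.9 kb apart on the short and 20.7 kb apart on the long arm, those of sgRNA4 46.8 and 46.1 kb, and those of sgRNA5 96.6 and 77.5 kb. In sgRNA1 replicate 2 the gaps were 502 and 301 kb, so that the arm with the closer peaks differed between guides.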

How the data were processed

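The data were 1 peak list per library from HA ChIP-seq of dCas9 in HEK 293T cells. The deposited lists give chromosome, start, end, name and score of each peak. Per the submitters' processing notes, Bowtie, Bowtie2 and MACS were used with build hg19; their versions are not given. The score deposited with each peak is the authors' own, with no value below 50, and served only to rank peaks within a list. Starts were raised by 1 to count positions from 1.

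Peaks were assigned to the arms by start, and Y was left out of densities elsewhere. The last peak in any list set each chromosome's end; sequence gaps were kept in the lengths. Peaks overlapped when they shared 1 bp. Replicates were merged for overlaps and averaged to 1 value per guide for tests, which were exact permutations over guides or lists, because peaks of 1 list are not replicates. Since nothing in the labels says that replicates were separate cultures, their spread, and p-values from it, may be technical. The replicate numbers were taken as pairing the lists, which is an assumption. Replicate 1 minus replicate 2 differences in log2 density over 24 units correlated between guides at 0.20, 0.25 and 0.42. The replicate 1 lists are short, so these values cannot settle whether the lists were paired. The replicate block was fitted for the comparison of sgRNA1, sgRNA2 and sgRNA3, which cannot reach 0.05 with or without it. The peaks named were, per guide and arm, the 2 with the highest score (for replicated guides, first those in both replicates), per arm the 5 regions with the most guides and 3 fullest bins, and the replicate 1 peaks found in replicate 2; other positions were chosen after their values were seen. The members and comparisons were chosen with earlier results of these data known. The code was tested on simulated data. Python 3.11.15, numpy 2.4.6, pandas 2.3.3, scipy 1.17.1 and matplotlib 3.10.9 were used.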

Additional observations from a re-analysis of the deposited data

Results flagged for a closer look

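The log2 ratio of long-arm to short-arm density was 0.00 and 0.08 in the sgRNA1 lists and below 0 with sgRNA4, sgRNA5 and sgRNA6, so that sgRNA1 differed from them by 0.169, 0.212 and 0.361. The difference was not tested, the other guides have 1 library each, and the lower sgRNA1 value rests on 9 peaks.

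The stretch left out between the arms, from 142500000 to 149900000, held 253 peaks over the 9 lists. Its density was 14.9 times that of the other chromosomes in sgRNA3 replicate 2 (12 peaks), 5.71 times in sgRNA1 replicate 2 (16), 3.20 times in sgRNA2 replicate 2 (4), 3.37 times with sgRNA5 (65), 1.54 times with sgRNA4 (49) and 1.32 times with sgRNA6 (104). Each replicate 1 list had 1 peak there.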

How the results depend on the processing

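Of 96 alternative values for 11 results, 53 kept direction and call; those added after seeing the data are the ones on width and the combined one below. The log2 ratio of the long to the short arm (-0.01) changed sign with covered base pairs in place of peaks (0.17), shared peaks only (0.081), ends left out (0.10) and the left-out stretch counted as long arm (0.11), none past the exact permutation test. It ran from -0.10 to 0.090 without replicate 1 or 2 and from -0.14 to 0.06 without 1 guide (positive without sgRNA2 at 0.01, sgRNA4 at 0.02, sgRNA5 at 0.03 or sgRNA6), and passed in the higher-scoring 50% of each list (-0.32), but not there once replicate 1 was also left out (-0.00). Against other chromosomes, the short arm gave 0.73 without replicate 2 (not past the test) and 1.12 without replicate 1, the long arm 0.82 and 1.01. Over the other settings with 6 guides the short arm ran from 0.76 (length as 1 Mb bins that hold a peak) to 1.18 (higher-scoring 50%). The long arm ran from 0.63 (unshared peaks only) to 1.15 (covered base pairs), all past the test. Leaving out 1 guide gave 0.84 to 0.96 and 0.82 to 0.99, where 5 guides cannot go below an exact p of 0.0625. The score difference (-3.62 points) was 12.8 with width in place of score, and ran from -13.8 to 6.55 without replicate 2 or 1 and from -5.79 to 1.38 without 1 guide (positive without sgRNA3). The width difference lost its call with mean percentiles (7.22), unshared peaks only (7.11) and without replicate 2 (11.7); without 1 guide it was 9.14 to 14.5, where no call is possible. The difference in shared peaks (3.32 points) ran from 2.76 (centres within 500 bp) to 8.65 (without replicate 2), with 3.52 without replicate 1. Replicate 1 peaks found in replicate 2 numbered 4 in place of 7 at 50% overlap. Bins with 3 or more guides (82.0% short, 83.2% long) were 70.4 and 64.5% at 500 kb, 100% and 100% at 5 Mb, and 73.8 and 68.3% in the higher-scoring 50%. The spread of the arm ratio over sgRNA1, sgRNA2 and sgRNA3 was 0.75 with and without the replicate block (exact permutation p = 1 with it and 0.8 without).

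Read depth is unknown, lists were called separately, and replicate 1 lists hold 4 to 9 arm peaks, so a site missing from a list is not shown to be unbound. DNA copy number and sequence gaps were not measured here.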
